A study of Mus musculus with 8 samples.

Results

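The genes that make prostaglandins, thromboxane and leukotrienes were followed on 8 expression arrays of mouse macrophages. The 10 chosen were Ptgs1, Ptgs2, Ptges, Tbxas1, Alox5, Alox5ap, Alox15, Ltc4s, Lta4h and Pla2g4a. They were chosen by name, with probes taken from the array's gene annotation and older names resolved through their Entrez identifiers. Of these 10 genes, 8 had at least 1 probe (11 probes in all), out of 15946 genes with a probe in the series. No probe was paired with Ptgs1 or Alox5 in the tables used here, so neither has a value. Probes of 6 of the 8 genes (Ptgs2, Ptges, Tbxas1, Alox5ap, Lta4h and Ltc4s) passed the filter on dim probes and were tested among 8793 genes. Alox15 and Pla2g4a stayed below it.

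All arrays held RNA of thioglycollate-elicited peritoneal macrophages of C57BL/6 mice, which are cells drawn to the peritoneal cavity by a sterile irritant. They had received siRNA directed at MLL (siMLL), a histone H3 lysine 4 methyltransferase, or at GABP (siGABP), an ETS-family transcription factor, or a scrambled sequence (siCtrl). Each kind was measured without treatment and after 6 h of Kdo2 lipid A (KLA), a defined lipopolysaccharide that activates Toll-like receptor 4 (TLR4). The siMLL untreated group held 3 arrays, and the other 5 combinations of siRNA and KLA state held 1 array each. The labels give neither the vehicle of the untreated cells, nor the ages of the mice, nor which MLL gene or GABP subunit was targeted. They also do not say whether the 3 replicates came from separate cultures, so the p-values measure only the spread between these arrays, which may be technical. For the KLA response and the siRNA effects over both KLA states, that spread also holds any difference between siRNAs in the KLA response.

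These genes act in sequence on arachidonic acid. Cytosolic phospholipase A2 (Pla2g4a) frees it from membranes. The cyclooxygenases (Ptgs1, constitutive, and Ptgs2, inducible) turn it into prostaglandin H2, from which Ptges makes prostaglandin E2 and Tbxas1 makes thromboxane A2. In the other branch 5-lipoxygenase (Alox5), aided by its membrane partner FLAP (Alox5ap), makes leukotriene A4. Lta4h hydrolyses that to leukotriene B4, a neutrophil attractant, and Ltc4s joins it to glutathione to give leukotriene C4. Alox15 is a lipoxygenase of resident peritoneal macrophages of the mouse. Macrophages are a known source of both kinds of lipid, and induction of Ptgs2 by TLR4 ligands is textbook behaviour.

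The sequence before the transcription start is shown for the 4 KLA-responsive genes below that had a window in the RefSeq table of build GRCm38.p6, so that genes that rose (Ptgs2, Ptges) can be read beside genes that fell (Tbxas1, Lta4h). Each line gives the 250 bases before the start, 5′ to 3′ on the gene's strand, with matches to the motifs searched in capitals.
Ptgs2 (chr1:150099781-150100030, + strand): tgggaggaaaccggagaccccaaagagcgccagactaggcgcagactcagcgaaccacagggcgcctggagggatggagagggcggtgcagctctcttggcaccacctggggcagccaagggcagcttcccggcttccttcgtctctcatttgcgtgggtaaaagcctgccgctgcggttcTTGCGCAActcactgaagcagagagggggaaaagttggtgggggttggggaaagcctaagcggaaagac
Ptges (chr2:30903298-30903547, - strand): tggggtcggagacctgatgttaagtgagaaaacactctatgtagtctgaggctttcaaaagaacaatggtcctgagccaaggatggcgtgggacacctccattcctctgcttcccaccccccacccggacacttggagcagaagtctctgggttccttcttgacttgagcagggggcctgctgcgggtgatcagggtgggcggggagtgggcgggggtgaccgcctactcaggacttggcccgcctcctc
Tbxas1 (chr6:38918736-38918985, + strand): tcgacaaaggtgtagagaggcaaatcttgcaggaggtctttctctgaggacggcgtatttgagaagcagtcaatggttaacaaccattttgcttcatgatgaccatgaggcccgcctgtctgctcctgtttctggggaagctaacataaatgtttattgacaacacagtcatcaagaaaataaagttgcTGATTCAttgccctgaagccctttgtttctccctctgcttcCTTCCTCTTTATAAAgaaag
Lta4h (chr10:93453146-93453395, + strand): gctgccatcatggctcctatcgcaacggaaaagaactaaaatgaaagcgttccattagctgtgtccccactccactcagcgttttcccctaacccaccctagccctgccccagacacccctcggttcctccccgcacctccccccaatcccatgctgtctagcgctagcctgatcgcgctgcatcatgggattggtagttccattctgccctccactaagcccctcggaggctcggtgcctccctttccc

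Of the 8 motifs searched on both strands, Ptgs2 matched only the C/EBP motif, read as TTGCNNAA and found at bases 69 to 62 before the start. A match to it was present in 9.56% of all 32851 windows. Tbxas1 held an AP-1 match (TGANTCA, bases 61 to 55, in 6.75% of windows) and a PU.1 match on the opposite strand (GAGGAAG, bases 20 to 14, in 10.6%). It also held TATAAA on both strands in overlapping positions, at bases 13 to 8 and 11 to 6 before the start (in 12.4%). The Ptges and Lta4h windows matched none of the 8. The other motifs were NF-kB (7.25% of windows), the cyclic AMP response element TGACGTCA (1.55%), the GABP motif CCGGAAG (6.91%) and the interferon response motif GAAANNGAA (7.13%). A match is a description of these letters and no evidence of binding. A missing match speaks only for these 250 bases before the annotated start, and not for the whole promoter.

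Values below are deposited intensities on a linear scale, quantile normalized by the authors, with a median over all probes of 139.5. Differences are on the log2 scale after background correction, with their standard error (SE), and a gene was called when its adjusted p from limma, over all 8793 genes, was under 0.05. Without usable detection values a dim probe could not be told from background, and folds of dim probes are understated. In RNA from a mixed cell population, fewer cells of a type and less RNA per cell cannot be told apart. Pairs of siMLL untreated arrays correlated at r = 0.996 to 0.998. Of the macrophage marker list, 8 of 10 genes had a probe and 7 passed the filter. The brightest had mean intensities of 30921 for Lyz2, 3079 for Adgre1 and 1818 for Cd14. The dimmest were Fcgr1 at 238.6, Itgam at 172.6 and Msr1 at 115.3. Of 6 B cell markers 3 had a probe, and none passed the filter. Of the mesothelial and fibroblast markers 9 of 11 passed, with Dcn the brightest at 2685. Of the neutrophil markers 3 of 10 passed, with S100a8 at 847.7 and the others with a probe at 116.4 to 147.8. With siGABP, Gabpa was 2.03-fold lower than with siCtrl (adjusted p = 0.000211) and Gabpb1 was 1.96-fold higher (adjusted p = 0.000155). With siMLL, Kmt2b, an MLL family gene, differed by -0.07 ± 0.09 and was not called, and no probe of Kmt2a was among those tested, so the siMLL label has no check here.

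The first comparison asked which of these genes responded to KLA. Ptgs2 and Ptges were called higher, and Alox5ap, Lta4h and Tbxas1 were called lower, while Ltc4s was not called. That is 5 of 6 genes called, beside 56.8% of all genes tested. By direction, 2 of 6 were higher beside 20% of all genes, and 3 of 6 lower beside 36.8%. The median difference of the 6 was -0.28, and that of all genes -0.04. Of the 7 tested macrophage markers, 3 were called higher with KLA and 2 lower, and Cd14 read 784.7 to 949.5 untreated and 3116 to 3727 after KLA. The macrophage list, of which Lyz2 makes up most, summed to 38410 to 42114 untreated and to 34127 to 43172 after KLA, and the neutrophil markers from 1754 to 2003 and from 1930 to 1977. Mast cell and basophil markers summed to 1249 to 1292 untreated and 1391 to 1409 after KLA, with none of the 3 tested called. In that list Hdc, below the filter, read 99.7 to 117.6 untreated and 193.1 to 230.8 after KLA. In the resident peritoneal macrophage list 1 of 3 tested markers was called higher and 1 lower, in the dendritic cell list 1 of 3 higher, in the platelet and megakaryocyte list 1 of 4 lower and in the mesothelial and fibroblast list 1 of 9 lower. The part of these cells in the KLA differences was not tested.

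Ptgs2 had intensities of 148.5, 138.5 and 137.9 on the 3 siMLL untreated arrays (141.7 ± 5.93, SD, n = 3), 136.4 with siCtrl and 138.9 with siGABP. After KLA it stood at 852.1 with siCtrl, 641.1 with siMLL and 682.2 with siGABP. All untreated arrays lay close to the median of all probes, and all KLA arrays lay far above them with no overlap. The fitted rise was 6.35-fold (log2 2.67 ± 0.09 SE, adjusted p = 2.46e-10), the 81st largest rise of the 8793 genes. A further Ptgs2 probe did not follow it, but it was below the filter and under the median of all probes on every array. Such a dim probe could not be told from background. That probe ranged from 103.3 to 118.8 untreated and from 109.7 to 123.4 after KLA, and differed by 0.03 (adjusted p = 0.832) when all named probes were fitted together.

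Ptges, the inducible microsomal prostaglandin E synthase, had intensities of 139.8, 157.5 and 150.0 with siMLL untreated, 126.3 with siCtrl untreated and 141.0 with siGABP untreated. The KLA arrays gave 203.9 with siCtrl, 191.2 with siMLL and 214.0 with siGABP. The KLA arrays did not overlap the untreated ones, although the gap was small beside that of Ptgs2. The rise was 1.57-fold (log2 0.65 ± 0.08 SE, adjusted p = 3.4e-05). Ptges stood 694th among the rises.

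Tbxas1, thromboxane A synthase, was measured by a pair of probes. The one used for the gene gave 1078, 1036 and 1175 with siMLL untreated, 1004 with siCtrl untreated and 1036 with siGABP untreated, against 800.4, 839.1 and 731.4 with siCtrl, siMLL and siGABP after KLA. The groups did not overlap, and the fall was 1.33-fold (log2 -0.42 ± 0.06 SE, adjusted p = 0.000146). The other probe ranged from 330.7 to 384.6 untreated and from 275.1 to 335.1 after KLA. Those ranges overlapped through the siGABP arrays, where it read 330.7 before and 335.1 after KLA, and it fell by 0.23 (adjusted p = 0.0493) in the fit of all named probes.

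Alox5ap, the partner that 5-lipoxygenase needs in cells, fell 1.66-fold with KLA (log2 -0.73 ± 0.06 SE, adjusted p = 1.08e-06). Its intensity went from 2293 to 1310 with siCtrl, from 4273, 4327 and 4042 to 2478 with siMLL, and from 3076 to 2069 with siGABP. The KLA array was the lower within each siRNA kind, yet the untreated and KLA arrays overlapped as groups, because the siMLL array after KLA stood above the siCtrl array before it.

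Lta4h, which makes leukotriene B4, read 538.4, 465.8 and 520.2 with siMLL untreated, 517.6 with siCtrl and 550.8 with siGABP. After KLA it read 369.1 with siCtrl, 369.6 with siMLL and 338.6 with siGABP. The groups did not overlap, and the fall was 1.49-fold (log2 -0.58 ± 0.07 SE, adjusted p = 2.87e-05). The other Lta4h probe also separated the groups, at 197.6 to 214.9 untreated and 165.6 to 183.6 after KLA, with a smaller fall of 0.23 (adjusted p = 0.0204) in the fit of all named probes.

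Ltc4s read 154.4, 148.9 and 156.3 with siMLL untreated, 159.7 with siCtrl and 155.6 with siGABP, and 159.2, 143.8 and 133.0 with siCtrl, siMLL and siGABP after KLA. The siCtrl pair was nearly level and the siGABP pair was not, so the groups overlapped. The difference of -0.14 ± 0.06 did not pass the test (adjusted p = 0.0892), with a 95% interval from -0.27 to 0.0033. Without either siCtrl array it became -0.19 and passed (adjusted p = 0.0473 without each).

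Below the filter, Pla2g4a ranged from 99.4 to 112.6 untreated and from 100.8 to 106.8 after KLA, and Alox15 from 112.0 to 121.9 and from 113.8 to 116.7. Both sat under the median of all probes on every array, and the 2 states overlapped. In the fit of all named probes their KLA differences were 0.01 (adjusted p = 0.969) and -0.02 (adjusted p = 0.859). Over all genes tested, 4160 of 8793 (47.3%) had KLA arrays that did not overlap the untreated ones.

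**Figure D1:**
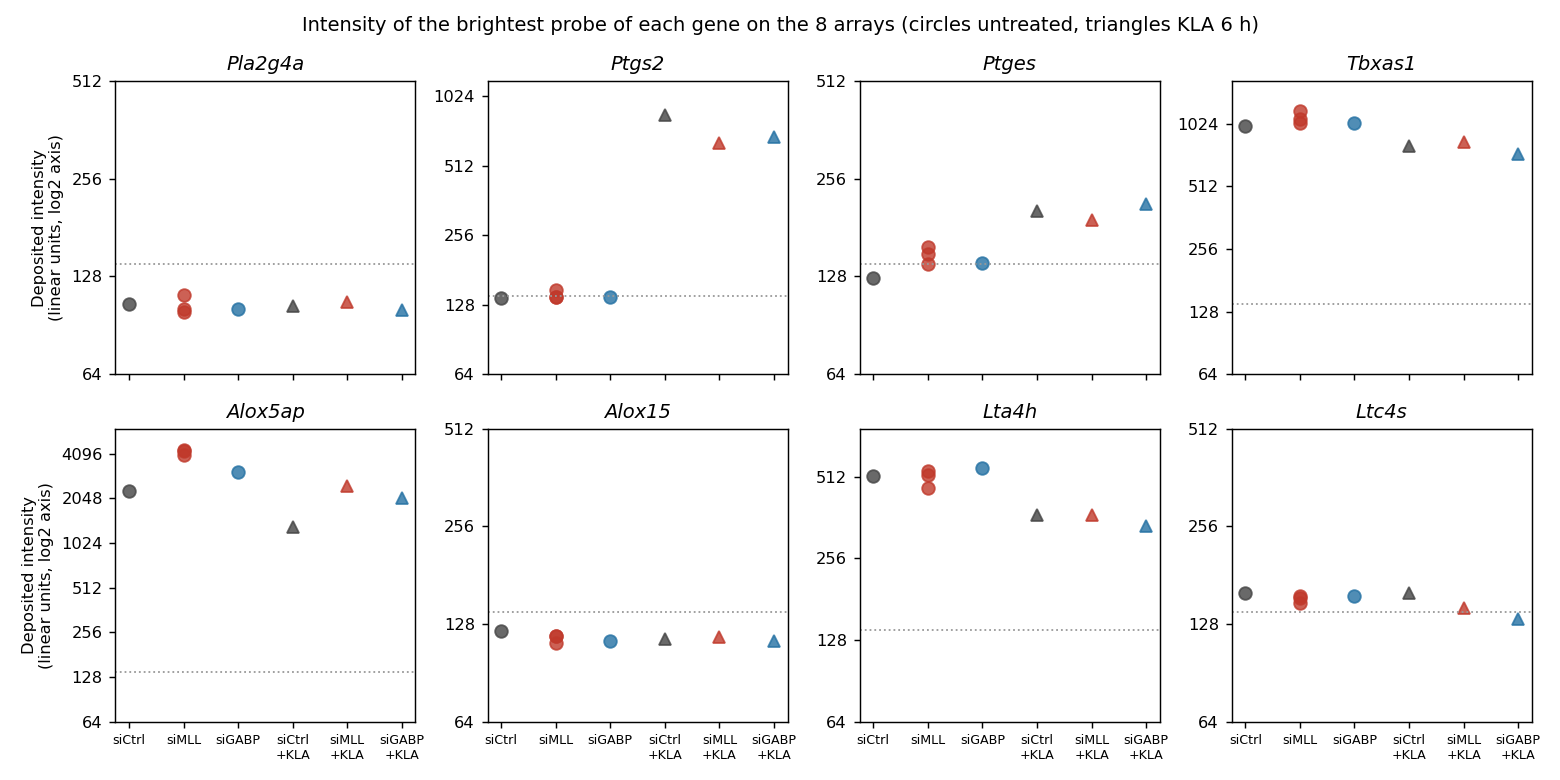
Deposited intensity (linear units on a log2 axis) of 1 probe per gene on each of the 8 arrays, with circles for untreated and triangles for 6 h KLA, grey for siCtrl, red for siMLL and blue for siGABP. The dotted line is the median of all probes (139.5). Ptgs2 leaves that line only after KLA, Alox5ap is higher with siMLL and siGABP than with siCtrl in both states, and Pla2g4a and Alox15 stay below the line throughout.

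The second comparison asked whether these genes differed between cells given siMLL or siGABP and cells given siCtrl. The differences came from a joint fit of untreated and KLA-treated cells with unequal group sizes, and are not plain means of the states. Alox5ap was the one gene of the 6 that was called for either siRNA, and it was higher with both. These effects share the siCtrl arrays, so a high or low reading of those arrays enters both.

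With siMLL, Alox5ap was 1.89-fold higher than with siCtrl (log2 0.92 ± 0.07 SE, adjusted p = 8.82e-05), the 6th largest rise of the 8793 genes. That is 1 of 6 genes called, beside 6.94% of all genes tested, and 1 higher, beside 4.26% of all genes called higher and 2.67% lower. Among the 3 siMLL untreated arrays the SD of Alox5ap was 0.05 on the log2 scale. The siMLL KLA, siCtrl untreated and siCtrl KLA groups were single arrays with no spread of their own. The Alox5ap difference was 0.89 in untreated cells and 0.94 after KLA. In untreated cells alone it was called too (0.89 ± 0.08 SE, adjusted p = 0.00587), where 1.89% of all genes were. The other 5 genes lay between -0.14 and 0.15, and their 95% intervals ran at the widest from -0.35 for Ptgs2 to 0.37 for Ptges.

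With siGABP, Alox5ap was 1.46-fold higher (log2 0.55 ± 0.08 SE, adjusted p = 0.00244), the 94th largest rise. Again 1 of 6 genes was called, beside 11.3% of all genes tested, with 5.81% called higher and 5.47% lower. By state, the difference was 0.43 in untreated cells and 0.67 after KLA. The other 5 genes lay between -0.19 and 0.15. Nearest to the threshold was Ltc4s, at -0.19 ± 0.08 with a 95% interval from -0.38 to -0.01 (adjusted p = 0.171).

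Set against each other, siGABP left Alox5ap 1.29-fold lower than siMLL did (log2 -0.37 ± 0.07 SE, adjusted p = 0.0146), where 5.29% of all genes were called. Without the siGABP untreated array the difference was -0.25 (adjusted p = 0.188), and without the siMLL KLA array it was -0.40 (adjusted p = 0.0503). Within each state the order of Alox5ap intensity was siMLL, siGABP, siCtrl, although all groups but siMLL untreated are single arrays. Over both states the order ran from siMLL untreated (4214 ± 151, SD, n = 3) through siGABP untreated, siMLL KLA, siCtrl untreated and siGABP KLA to siCtrl KLA. Neighbours among the single arrays, such as siMLL KLA at 2478 and siCtrl untreated at 2293, have no replicates of their own to set their gap against.

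Some markers of other cells differed between the siRNAs, though not always alike in both KLA states. The summed intensity of the neutrophil list was 1754 with siCtrl untreated, 1882 to 2003 with siMLL untreated and 1840 with siGABP untreated, and 1930, 1976 and 1977 with siCtrl, siMLL and siGABP after KLA. S100a8 makes up the largest part of that sum, at 688.3, 823.9 to 919.5 and 790.0 with siCtrl, siMLL and siGABP untreated. Its dimmer markers were mixed. In untreated cells Ltf was higher with siMLL than with siCtrl (152.2 to 163.7 beside 129.9), and S100a9 was lower (121.3 to 125.6 beside 139.5). None of the 3 tested neutrophil markers was called for either siRNA. The mesothelial and fibroblast list summed to 6388 with siCtrl untreated, above the 5337 to 5623 with siMLL and the 5555 with siGABP. After KLA siCtrl was the lowest, at 5077 beside 5568 with siMLL and 5232 with siGABP. Dcn makes up the largest part, at 3127 with siCtrl, 2413 to 2693 with siMLL and 2702 with siGABP untreated. After KLA Dcn read 2305, 2885 and 2702 in the same order. Of the 9 tested markers in this list, 2 were called lower with siMLL, beside 2.67% of all genes, and 2 with siGABP, beside 5.47%. With siGABP, 1 of 3 tested resident peritoneal macrophage markers was also called lower (Gata6, 518.2 with siCtrl and 381.7 with siGABP untreated, 388.4 and 265.7 after KLA), and 1 of 4 tested platelet and megakaryocyte markers (Pf4, 533.7 and 308.5 untreated, 548.4 and 261.4 after KLA). The platelet list summed to 1432 with siCtrl and 1165 with siGABP untreated, and to 1388 and 1071 after KLA. The resident macrophage list summed to 1162 and 995.6 untreated, and to 1068 and 906.5 after KLA. None of the 7 tested macrophage markers was called for either siRNA. The part of these cells in the Alox5ap difference was not tested.

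**Figure D2:**
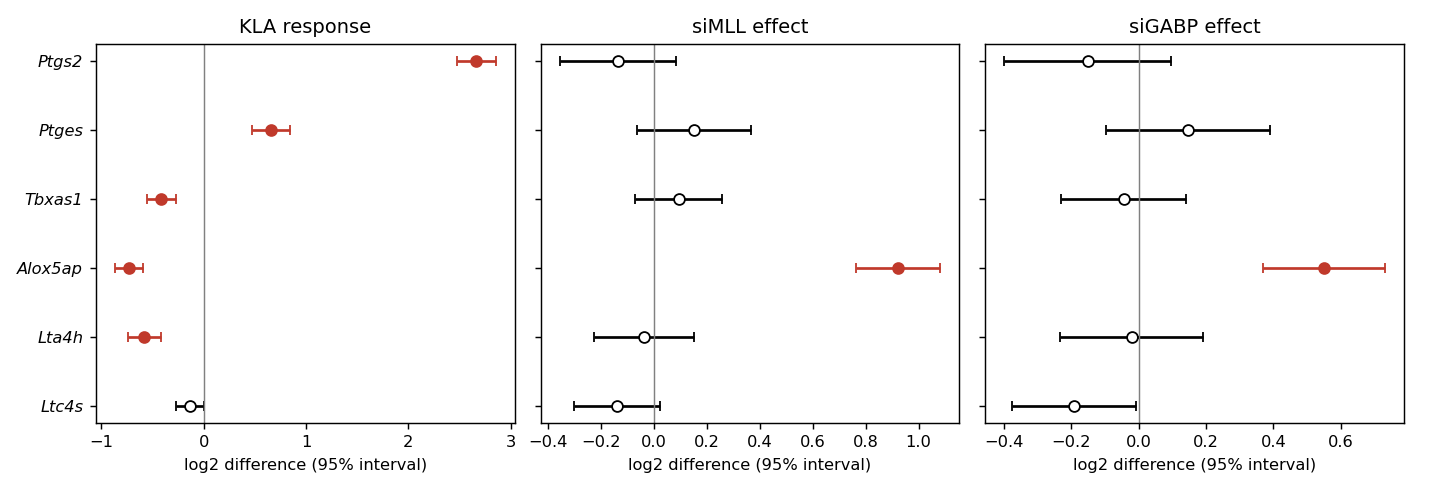
Log2 difference of each of the 6 tested genes with its 95% interval from limma, for the KLA response (left), the siMLL effect (middle) and the siGABP effect (right), with filled red points for called genes. Called are 5 genes for KLA, and Alox5ap alone for each siRNA, at 0.92 and 0.55. The horizontal scales differ between the panels.

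**Figure D3:**
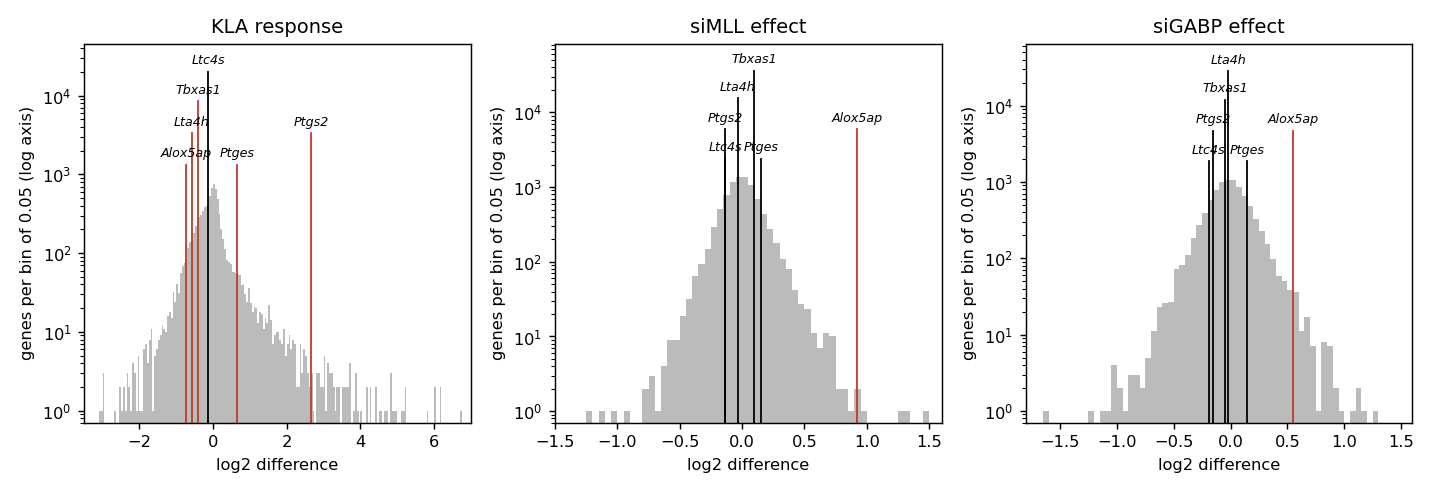
Number of genes (log axis) per bin of 0.05 in log2 difference for all 8793 genes tested, with vertical lines at the 6 genes, red where called, whose heights only keep the names apart. With siMLL, Alox5ap stands in the upper tail at 0.92 and the others near the middle.

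The last comparison asked whether either siRNA changed the size of the KLA response. None of the 6 genes was called for either, and 1 gene of 8793 (0.0114%) was called for each, with 640 and 747 genes at an unadjusted p under 0.05 for siMLL and siGABP. The spread in this fit came only from the 3 siMLL untreated arrays.

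The KLA difference of Ptgs2 was 2.99 with siCtrl, 2.49 with siMLL and 2.62 with siGABP on the log2 scale. Set against siCtrl, the response differed by -0.50 ± 0.14 SE with siMLL (adjusted p = 0.540) and by -0.37 ± 0.15 SE with siGABP (adjusted p = 0.588), and neither passed. The 95% interval of the siMLL difference ran from -0.83 to -0.17 before adjustment over all genes. For Ptges the KLA differences were 0.87, 0.45 and 0.74 in the same order, and the siMLL change in response of -0.42 ± 0.16 did not pass either (adjusted p = 0.632). In untreated cells Ptges was 0.31 ± 0.10 higher with siMLL than with siCtrl, which was not called (adjusted p = 0.175).

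Alox5ap had KLA differences of -0.82, -0.77 and -0.58 with siCtrl, siMLL and siGABP. The differences in its response were 0.05 ± 0.13 with siMLL, with an interval from -0.25 to 0.35, and 0.24 ± 0.14 with siGABP, with an interval from -0.09 to 0.57. Those of Lta4h were -0.53, -0.49 and -0.76, those of Tbxas1 -0.34, -0.40 and -0.52, and those of Ltc4s -0.01, -0.12 and -0.29. On the probe used for each gene the sign was the same under all 3 siRNAs, though the Ltc4s value with siCtrl was near 0. It was not the same on the other Tbxas1 probe (-0.37, -0.30 and 0.02) or the other Ptgs2 probe, which was below the filter (0.11, 0.11 and -0.16).

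**Figure D4:**
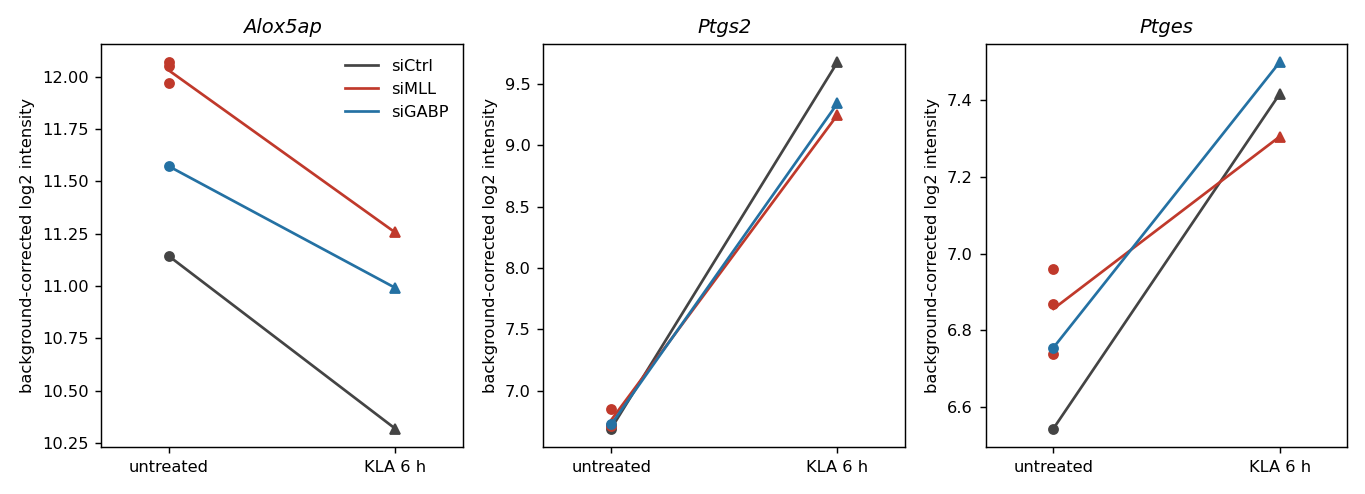
Background-corrected log2 intensity of Alox5ap, Ptgs2 and Ptges before and after 6 h of KLA, with a line per siRNA and a point per array (3 siMLL untreated arrays, whose mean starts the line). The Alox5ap lines run nearly parallel at 3 levels, and the Ptgs2 lines start together and end at 9.68 with siCtrl, 9.25 with siMLL and 9.34 with siGABP. Vertical scales differ between the panels.

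Around these genes, 68 others that release arachidonic acid, make, carry, break down or bind eicosanoids were listed by role. Of these, 58 had a probe and 40 were tested. KLA raised 6 and lowered 19 of the 40, beside 20% and 36.8% of all genes, and their median difference was -0.15 beside -0.04 for all genes. Of 9 genes for phospholipases and arachidonate handling, 8 were lower and none higher. Counts by role are to be read against those shares of all genes too. Other prostanoid synthases had 1 higher and 4 lower of 8, and other lipoxygenases and 5-lipoxygenase partners 1 higher and 3 lower of 6. Transport and breakdown genes had 1 higher and 2 lower of 9, and receptors 3 higher and 2 lower of 8.

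Among those with a change of at least 1 on the log2 scale, Fpr2, a formyl peptide receptor that also binds lipoxin A4, stood apart. Its intensity was 131.3 to 135.1 on the siMLL and siCtrl untreated arrays and 166.2 with siGABP, and after KLA 2478 with siCtrl, 2599 with siMLL and 4094 with siGABP. The rise was 26.5-fold (log2 4.73 ± 0.07 SE, adjusted p = 3.5e-13). Pparg, a nuclear receptor for fatty acids and their oxidized products, fell 3.34-fold (log2 -1.74 ± 0.06 SE, adjusted p = 3.41e-10). Pla2g15, the lysosomal phospholipase A2, fell 3.18-fold, and Daglb, a diacylglycerol lipase whose product is a source of arachidonic acid, fell 2.23-fold. Hpgds, the haematopoietic prostaglandin D synthase, fell 2.07-fold. It went from 619.7 to 260.0 with siCtrl, the steepest fall, from 855.0, 707.4 and 639.8 to 407.2 with siMLL, and from 646.0 to 347.1 with siGABP. All 5 kept their call under every alternative run.

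**Figure D5:**
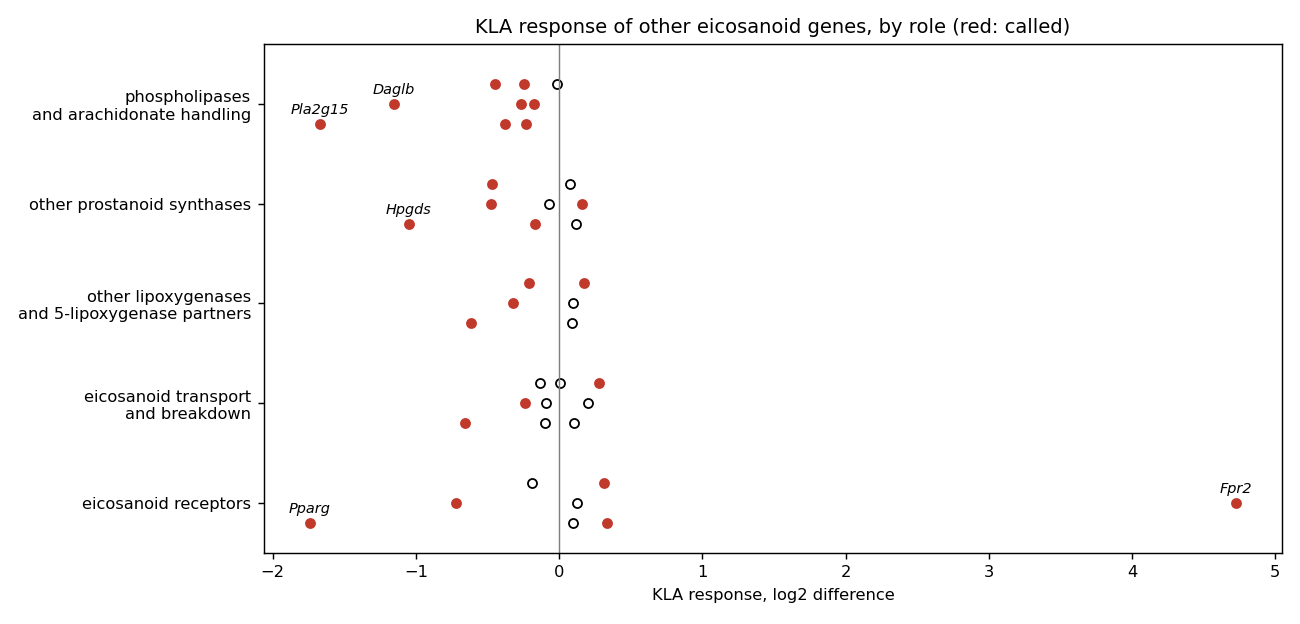
KLA response (log2 difference, horizontal axis) of the 40 tested eicosanoid genes outside the main set, in rows by role, filled red where called, with the genes at 1 or more named. Points sit mostly left of 0 for phospholipases, and Fpr2 lies far to the right at 4.73. Vertical offsets only keep points apart.

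For the siRNAs, 5 of the 40 were called higher and 1 lower with siMLL, and 2 higher and 2 lower with siGABP. Of all genes, 4.26% were higher and 2.67% lower with siMLL, and 5.81% and 5.47% with siGABP, so the siGABP count was near that of all genes. With siMLL the higher genes were Ephx1, the microsomal epoxide hydrolase (0.43), Prxl2b, which makes prostaglandin F2 from prostaglandin H2 (0.41), the secreted phospholipase Pla2g2e (0.38), Cyp4f18, which hydroxylates leukotriene B4 in the mouse (0.36), and the prostaglandin E synthase Ptges2 (0.34). The lower gene was Pla2g15 (-0.37). With siGABP, Fpr2 (0.56) and the leukotriene D4 dipeptidase Dpep2 (0.28) were higher, and Pla2g15 (-0.42) and Ptges3, the cytosolic prostaglandin E synthase (-0.28), were lower. Between the siRNAs, Fpr2 (0.53) and the leukotriene receptor Cysltr1 (0.30) were higher with siGABP, and Cyp4f18 (-0.52) and Prxl2b (-0.29) lower, 4 of 40 where 5.29% of all genes were called. In untreated cells alone, Ephx1 (0.51) and Prxl2b (0.46) were called higher with siMLL, 2 of 40 where 1.89% of all genes were called.

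Of the 16 siRNA calls of these genes, 1 (Fpr2 between the siRNAs) held under every alternative and 15 were lost under at least 1, all without a change of direction. Alox5ap itself kept its call under all 16 alternatives for each siRNA, including the fit of all named probes, at 0.87 to 0.99 for siMLL and 0.44 to 0.66 for siGABP. Not all of these could move its estimate. It has 1 probe, so averaging probes, the filter and the variance prior could change its adjusted p only. Leaving out a siMLL array likewise left its siGABP estimate at 0.55. Without the siCtrl KLA array Fpr2 stood at 0.46 with siGABP (adjusted p = 0.0527), and without the siGABP KLA array at 0.41 (adjusted p = 0.0512). Pla2g15 with siMLL lost its call without either siCtrl array (-0.28 without KLA, -0.48 without untreated), with siMLL KLA left out (-0.38) and with replicate 3 of siMLL untreated left out (-0.35). Its siGABP call was lost without siCtrl KLA (-0.32) or siGABP KLA (-0.30). Ephx1 and Prxl2b lost their siMLL call over both states only without siCtrl untreated (0.30 and 0.38), and Pla2g2e without either siCtrl array (0.37 and 0.38). In untreated cells alone, Ephx1 kept its siMLL call in 10 of 13 alternatives (0.46 to 0.56) and Prxl2b in 9 of 13 (0.41 to 0.52). Cyp4f18 kept its siMLL call in 8 of 15 alternatives (0.25 to 0.46), Ptges2 in 10 (0.29 to 0.42), Cysltr1 its call between the siRNAs in 9 (0.25 to 0.38), and Dpep2 and Ptges3 their siGABP calls in 7 (0.23 to 0.33) and 4 (-0.33 to -0.12). Between the siRNAs, Cyp4f18 lost its call without siGABP KLA (-0.42) or siMLL KLA (-0.42), and Prxl2b kept its own in 4 of 15 alternatives (-0.35 to -0.20).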

How the data were processed

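RNA of 8 macrophage samples was hybridised to Illumina mouse arrays. The deposited intensity values, made by the authors with BeadStudio 1.5.1.3 according to the submitters' processing notes, are on a linear scale and were identical across arrays once sorted, as quantile normalization leaves them (68.5 to 62999, median 139.5). The other table holds 16 columns of per-sample values whose names match no label and was not used here, so no detection values entered the analysis. The number of arrays limits the precision.

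Intensities were corrected with normexp (offset 50), quantile normalized and taken to log2. Probes with a mean above the median of all probes (6.73) and 1 gene symbol were kept, and the probe with the highest mean stood for a gene. Fits used limma 3.58.1 under R 4.3.3, two-sided, with Benjamini-Hochberg adjustment over 8793 genes. The KLA response, the siRNA effects and their difference came from an additive model (4 residual degrees of freedom). The residual spread of that model also holds any difference between siRNAs in the KLA response. Effects of siMLL before treatment, and of both siRNAs on the response, came from a model with a mean per group (2 residual degrees of freedom), with lone arrays assumed to vary like the siMLL untreated triplicate. Each model was also run on simulated data with known shifts and independent noise of the same size for every gene. That simulation does not copy the gene-to-gene spread of these arrays, so it does not show how the models perform on them.

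The 10 genes and the lists were chosen with earlier results of these data known. All 10 were described with all probes. Of the listed eicosanoid genes, those called for an siRNA comparison, or for KLA at 1 or more on the log2 scale, were named. Promoter windows came from RefSeq (GRCm38.p6). Windows were found for 8 of the 10 genes. Alternatives covered background correction, offset, filter, probes per gene, variance prior, model and each array left out.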

Additional observations from a re-analysis of the deposited data

How the results depend on the processing

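No paired analysis was possible because replicate numbers were given for 1 group only. Of the 42 differences (6 genes in 7 comparisons), 9 were called. Of these 9, 8 kept their call under every alternative and none changed direction, although not every alternative could move every estimate. The exception was Alox5ap between siGABP and siMLL, and with it the count of called genes there went from 1 to 0 without the siGABP untreated or the siMLL KLA array. Called KLA differences ranged over alternatives from 2.34 to 3.15 for Ptgs2, 0.52 to 0.89 for Ptges, -0.79 to -0.70 for Alox5ap, -0.64 to -0.41 for Lta4h and -0.45 to -0.32 for Tbxas1. Of the 33 uncalled differences, 1 (Ltc4s for KLA, above) passed under an alternative, and 15 changed direction under at least 1. The cause was not tested.

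With the mean of a gene's probes, the sign changed for Lta4h between the siRNAs (-0.0378), for siMLL in untreated cells (0.019) and for the siMLL effect on the KLA response (-0.029), and for Tbxas1 with siGABP (0.039) and for the effects of siGABP (0.11) and siMLL (0.0063) on the KLA response. With a mean per group, it changed between the siRNAs for Lta4h (-0.0063), Ptges (0.046) and Ptgs2 (0.029), and without background correction for Ptges (0.0010). Leaving out each array in turn, the siMLL effect ranged from -0.090 to 0.0097 for Lta4h, from -0.023 to 0.28 for Ptges and from -0.39 to 0.057 for Ptgs2. The siGABP effect ranged from -0.15 to 0.11 for Lta4h, from -0.0058 to 0.30 for Ptges, from -0.37 to 0.073 for Ptgs2 and from -0.12 to 0.029 for Tbxas1. Between the siRNAs the range was -0.13 to 0.12 for Lta4h, -0.18 to 0.041 for Ltc4s, -0.13 to 0.067 for Ptges and -0.13 to 0.025 for Ptgs2. For Lta4h it was -0.078 to 0.034 for siMLL in untreated cells and -0.032 to 0.080 for the siMLL effect on the KLA response.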
